A study of Mus musculus with 6 samples.

Results

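The polyI:C response of pools of wild-type hematopoietic stem cells (HSCs) was read from the Cy3 channel of 6 two-colour arrays. Per the labels, Cy3 carried RNA of sorted mouse bone marrow HSCs from 2 wild-type pools: an untreated pool, hybridised on 3 arrays, and a polyI:C-treated pool, hybridised on the other 3. These are 2 of the 8 RNA samples of the series. The other 6, in the Cy5 channel of the same arrays, are HSC samples of Cdk6-/- mice, 3 untreated and 3 treated with polyI:C, and are given here only beside the pools. The study concerns CDK6, a kinase of the cell cycle, in the activation of blood stem cells. The pools bear on a question that comes before it, namely how a treated pool of wild-type HSCs differs from an untreated one. The dose, route and timing of polyI:C, whether mice or sorted cells were treated, the surface markers used for sorting, and the number, age, strain and sex of the mice in a pool are not given in the sources used here. Each treatment is represented by 1 pool, so the spread between hybridisations is technical: it covers labelling, hybridisation and scanning, but not the variation between mice. No test between the treatments was therefore possible, and every value describes these 2 pools.

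PolyI:C is a synthetic double-stranded RNA that cells read as a sign of viral infection. Sensors such as Toll-like receptor 3 in endosomes and MDA5 (Ifih1) in the cytosol detect it and switch on type I interferon, which acts through its receptor, JAK kinases and a complex of transcription factors that includes STAT2 and IRF9 on promoters that carry an interferon-stimulated response element. The induced genes hold the antiviral effectors, guanosine triphosphatases (GTPases) that attack intracellular pathogens, the ubiquitin-like modifier ISG15 and the machinery of antigen presentation. In bone marrow, polyI:C and type I interferon are known to push otherwise quiescent HSCs into the cell cycle.

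Values are log2 Cy3 intensities after background correction and quantile normalization over the 6 arrays. A gene is said to have risen or fallen where the treated mean differed from the untreated mean by at least 2-fold, 1 on the log2 scale, and the 3 treated hybridisations lay wholly above or below the 3 untreated ones. The figure after ± is the technical standard error of a difference on the log2 scale, over 3 against 3 hybridisations. Where a probe was not well above background on any array of a pool, the fold is given as "at least", against the dimmest signal that counted as well above background or the probe's own value, whichever was higher. Of 59305 spots that were not controls, 54.4 to 58.7% were well above background in Cy3 on 5 of the arrays and 75.6% on treated array 3, which was alone on its slide. Across genes, the untreated hybridisations correlated with each other at 0.976 to 0.985 and treated arrays 1 and 2 at 0.982, while treated array 3 correlated with those at 0.953 and 0.943. Between the pools the correlation was 0.884 to 0.928.

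Of 22432 genes measured, 905 rose in the treated pool, a background of 4.03% of genes, and 1575 fell, a background of 7.02%. The median difference over all genes was 0.03. By at least 4-fold, 76 genes were higher and 318 lower. Without treated array 3, 1071 genes rose and 1527 fell. The arrays lay on 3 slides, and both pools were present on slide 1 (untreated arrays 1 and 3, treated array 1) and slide 2 (untreated and treated array 2). Calls that did not hold within a slide, or with the slide as a fixed block, are given beside the gene. The genes with the largest rises that were measured in both pools were mostly interferon-induced, among them Ccl5, Apol9b, Irf7, Cxcl9, Phf11d, Ifit1bl1, Bst2, Usp18, Oasl1 and Zbp1. Those with the largest falls included genes of mature blood cells, such as the eosinophil ribonuclease Ear6, the macrophage lysozyme Lyz2, the red cell anion exchanger Slc4a1 and the B cell receptor chain Cd79a.

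**Figure D1:**
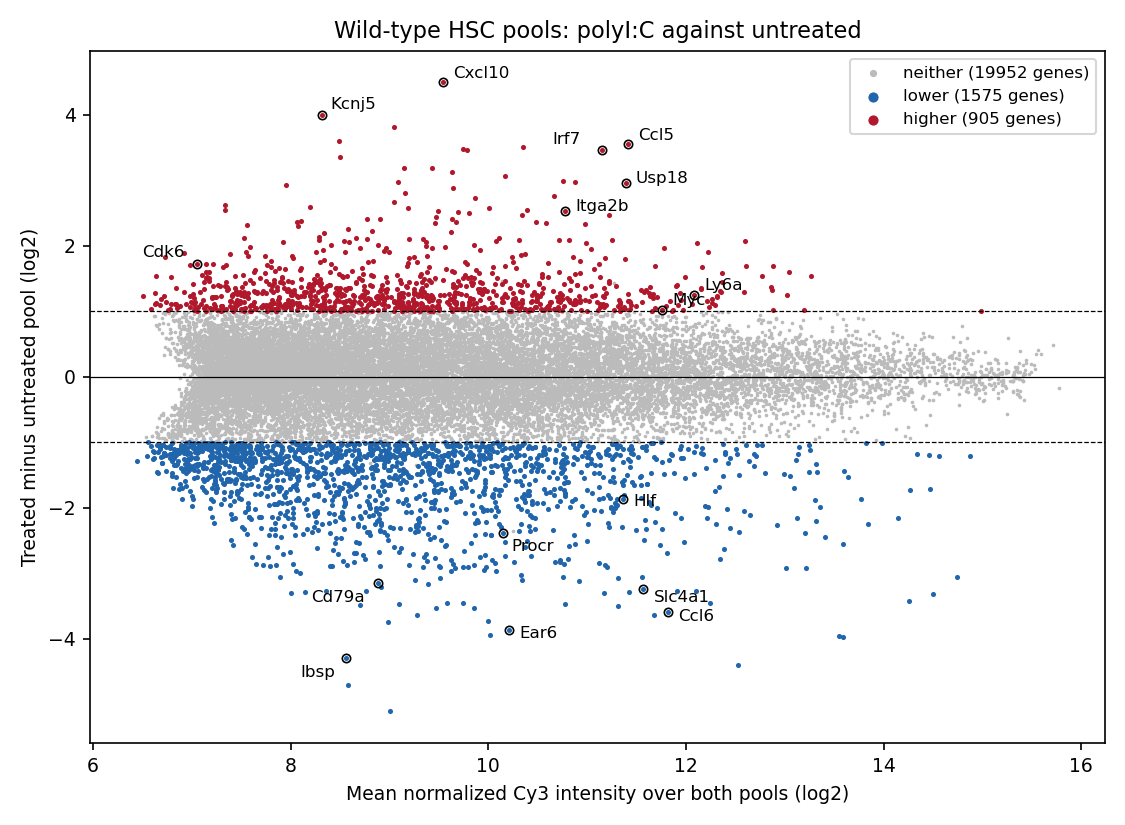
Each point is 1 of 22432 genes, with the mean normalized Cy3 intensity of both pools (log2) on the horizontal axis and the treated minus untreated difference (log2) on the vertical axis. Red points are the 905 genes that rose, blue points the 1575 that fell, and dashed lines mark a 2-fold difference; the fall extends further from 0 than the rise at most intensities.

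The markers of the labelled cell were present. All 8 defining HSC markers, among them Kit, Ly6a, Slamf1, Procr, Hlf, Mecom and Fgd5, were well above background on all 6 arrays. Markers of mature lineages were also measured. On all 3 untreated arrays, 23 of 23 granulocyte, 23 of 23 monocyte and macrophage, 22 of 23 erythroid and 16 of 16 B cell markers were well above background. On all 3 treated arrays the numbers were 23, 19, 22 and 9. A gene counted as measured only if it was well above background on all 3 arrays of at least 1 pool. High counts follow in part from this rule: of all 22432 genes, 21296 were well above background on all untreated and 20624 on all treated arrays. Xist, which is transcribed from the inactive X chromosome, differed by 0.34 ± 0.32, and the Y-linked genes Ddx3y and Eif2s3y by -0.16 ± 0.41 and -0.88 ± 0.13.

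Among 14 measured sensors of double-stranded RNA and their adaptors, 5 rose and 1 fell, against the background shares of 4.03 and 7.02%. Zbp1, a sensor of left-handed nucleic acid, had intensities of 9.36, 9.15 and 9.37 in the untreated pool and 12.25, 12.02 and 11.86 in the treated pool, a difference of 2.75 ± 0.14. Its other probe gave 1.07. Ifih1, the cytosolic sensor MDA5, rose by 2.08 ± 0.23 (its other probe 1.39), from 10.14 to 10.26 untreated to 11.88 to 12.67 treated. Eif2ak2, the kinase PKR that stops translation on binding double-stranded RNA, rose by 1.75 ± 0.28, Dhx58 by 1.35 ± 0.12 and Ddx58, the sensor RIG-I, by 1.09 ± 0.30 (0.86, under 2-fold, without treated array 1). The adaptors Mavs (-0.23 ± 0.15) and Sting1 (-0.20 ± 0.11) differed by less than 2-fold, and the kinase gene Ikbke fell (-1.21 ± 0.14).

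Of the transcription factors that carry the interferon signal, Irf7, the factor that amplifies type I interferon production, stood apart. Its untreated intensities were 9.44, 9.58 and 9.26 and its treated intensities 12.79, 12.75 and 13.12, an 11.0-fold rise (3.46 ± 0.15). Stat2 (0.96 ± 0.40) came close to the 2-fold limit, and the number of listed factors that rose, 1, was 2 without untreated array 1, untreated array 3, treated array 1 or treated array 3 and 3 without untreated array 2. Irf9 differed by 0.10 ± 0.35. The lymphoid and myeloid factors Irf4 (-2.69 ± 0.19) and Irf8 (-1.88 ± 0.15) fell. Of 14 receptors, JAK kinases and inhibitors of the pathway, none rose and 1 fell (7.14%), near the 7.02% of all genes. It was the phosphatase gene Ptpn6 (-1.03 ± 0.11, but -0.99 without untreated array 2 and -0.96 without treated array 1). Without untreated array 2 none fell, and without treated array 2 the number was 2. The feedback inhibitor Socs1 was at 0.80 ± 0.09 and the receptor chain Ifnar1 at -0.36 ± 0.28.

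Of 37 measured antiviral effectors, 23 rose and none fell, with a median difference of 1.36. Ifit1, which binds viral RNA that lacks the cap modification of the host, rose by 3.48 ± 0.60. Its untreated values were 8.56, 6.88 and 8.58, above background on 2 of the 3 arrays, and its treated values 11.80, 11.52 and 11.12. Bst2, the tether that holds budding virions at the cell surface, went from 9.77, 9.21 and 9.17 to 12.48, 12.04 and 12.56 (2.98 ± 0.25). The oligoadenylate synthetases, which make a second messenger of the antiviral response, rose in the forms Oas3 (2.08 ± 0.18), Oas1a (1.91 ± 0.09) and Oas2 (1.80 ± 0.10). The related genes Oasl1 (2.88 ± 0.24) and Oasl2 (1.58 ± 0.18) also rose. Not every member of the list moved: Rsad2, the enzyme viperin, was at 0.53 ± 0.13, Ifitm3 at 0.63 ± 0.10 and Ifitm1 at -0.32 ± 0.12. Near-identical genes (Ifit3 and Ifit3b, Oas1a and Oas1g, Apol9a and Apol9b, and the Phf11 family) can share signal and are not independent measurements.

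The interferon-induced GTPases moved together: 15 of 16 measured members rose and none fell, with a median of 1.68. These proteins assemble on the membranes around intracellular pathogens. Irgm1, a regulator of the immunity-related GTPases that is itself known to protect HSCs under interferon, had untreated intensities of 9.37, 9.07 and 8.92 and treated intensities of 11.43, 11.57 and 11.98 (2.54 ± 0.21). The guanylate-binding protein gene Gbp3 went from 7.92, 8.87 and 8.51 to 10.95, 11.27 and 10.65 (2.52 ± 0.33). Irgm2 (2.07 ± 0.40), Iigp1 (2.04 ± 0.30, its other probe 2.88), Igtp (1.77 ± 0.25), Gbp7 (2.09 ± 0.17) and Gbp2 (1.68 ± 0.32) also rose, and Gbp4, at 0.07 ± 0.35, was the member that did not. Close copies in the list, such as Tgtp1 and Tgtp2, can share signal and are not independent measurements.

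Because these genes moved together, promoter sequences from RefSeq (GRCm38.p6, whereas the arrays were annotated on mm9) were searched for the core of the interferon-stimulated response element, GAAANNGAAA, on both strands, with overlapping matches allowed, in the window from 250 bases before to 50 bases after each transcription start. Matches occurred in 9 of 10 GTPase genes with a promoter in the table (90.0%), in 15 of 31 antiviral effectors (48.4%) and in 2 of 8 genes of the ISG15 list (25.0%). The stretches upstream of Irgm2 and Igtp, and those of Tgtp1 and Tgtp2, were alike, so their matches are not independent. The share was 9.44% of all genes that rose (49 of 519), 4.77% of those that fell (43 of 902) and 4.0% of all measured genes (433 of 10838). Over the whole table, 1131 of 32851 promoters (3.44%) held it. A match is a description of the letters in this window and not a binding site that was measured. The stretches that follow, all upstream of the start and 5′ to 3′ on the gene's strand, are shown because they carry matches, in capitals, in genes with large rises: Isg15 (chr4:156200819-156200956, minus strand), Ifit1 (chr19:34640725-34640873, plus strand), Oas1a (chr5:120907526-120907605, minus strand), Bst2 (chr8:71537527-71537662, minus strand), Gbp3 (chr3:142559939-142560043, plus strand), Irgm1 (chr11:48871421-48871510, minus strand) and Apol9b (chr15:77728975-77729071, plus strand). Where the capitals read TTTC, the match lies on the opposite strand.
Isg15: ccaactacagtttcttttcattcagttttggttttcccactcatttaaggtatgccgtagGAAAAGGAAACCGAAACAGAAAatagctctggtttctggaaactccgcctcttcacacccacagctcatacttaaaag
Ifit1: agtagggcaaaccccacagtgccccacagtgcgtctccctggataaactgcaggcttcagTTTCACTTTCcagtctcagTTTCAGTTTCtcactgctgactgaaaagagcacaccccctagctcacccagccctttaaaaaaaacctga
Oas1a: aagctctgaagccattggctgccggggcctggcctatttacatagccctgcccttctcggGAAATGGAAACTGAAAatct
Bst2: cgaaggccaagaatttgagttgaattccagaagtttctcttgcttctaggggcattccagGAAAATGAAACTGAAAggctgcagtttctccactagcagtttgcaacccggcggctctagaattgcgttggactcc
Gbp3: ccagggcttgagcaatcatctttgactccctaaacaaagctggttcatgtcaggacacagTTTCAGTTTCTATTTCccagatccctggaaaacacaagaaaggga
Irgm1: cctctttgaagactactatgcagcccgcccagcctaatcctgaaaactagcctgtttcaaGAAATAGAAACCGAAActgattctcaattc
Apol9b: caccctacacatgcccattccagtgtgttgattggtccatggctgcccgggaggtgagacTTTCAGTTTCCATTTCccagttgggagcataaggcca
In Isg15, Oas1a, Bst2, Gbp3, Irgm1 and Apol9b the matches overlapped and form a longer run of the repeat, while in Ifit1 they were apart.

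In the pathway of ISG15, a ubiquitin-like protein that is attached to others during infection, 6 of 12 members rose and none fell, with a median of 1.1. Isg15 went from 9.08, 9.48 and 9.40 to 10.77, 11.09 and 11.17 (1.69 ± 0.17). Usp18, which removes ISG15 and blocks the interferon receptor, went from 9.78, 10.10 and 9.86 to 12.82, 12.86 and 12.92 (2.95 ± 0.10). The ligase gene Herc6 rose by 2.12 ± 0.32 (its other probe 1.29), Dtx3l by 1.72 ± 0.13, and Parp12 by at least 2.52-fold from a level not well above background. The E1 and E2 enzymes of the pathway, Uba7 (0.46 ± 0.15) and Ube2l6 (0.52 ± 0.14), differed by less than 2-fold.

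Antigen presentation by MHC class I showed 6 of 18 members higher and none lower, with a median of 0.55. The genes that rose serve peptide supply and loading: the peptide editor Tapbpl (1.90 ± 0.26), the transporter Tap1 (1.36 ± 0.35), the immunoproteasome subunits Psmb8 (1.23 ± 0.09) and Psmb10 (1.18 ± 0.15), Tapbp (1.09 ± 0.14, or 0.99 without untreated array 1) and the transactivator Nlrc5 (1.09 ± 0.25, or 0.93 without treated array 2). The class I chains did not reach 2-fold, with H2-K1 at 0.10 ± 0.17, H2-D1 at -0.21 ± 0.15 and B2m at 0.36 ± 0.20. Of 9 MHC class II genes none rose and 1 fell, H2-Ob (-1.45 ± 0.11), or 1 rose and 1 fell without treated array 1 and 2 fell without treated array 3. The share that fell was 11.1%, against 7.02% of all genes.

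Chemokines and cytokines split, with 5 of 19 higher and 6 lower (26.3 and 31.6%, against 4.03 and 7.02% of all genes). With 1 hybridisation left out, 4 to 5 rose and 4 to 8 fell. Cxcl10, a ligand of CXCR3 that draws activated T cells, showed the largest rise of any listed gene, 4.50 ± 0.80, from 6.44, 7.81 and 7.62 (above background on 2 of 3 untreated arrays) to 12.54, 12.39 and 10.44. Treated array 3 was lower than the others for this gene, but no treated value came near the untreated ones. The related Cxcl9 went from 8.13, 7.98 and 8.05 to 11.71, 11.60 and 11.25 (3.46 ± 0.14, its other probe 2.81). Ccl5, a chemokine that draws T cells and monocytes, had 9.63, 9.64 and 9.64 untreated and 12.96, 13.30 and 13.30 treated, an 11.7-fold rise (3.55 ± 0.11). Tgfb1, which holds HSCs in quiescence, rose by 1.39 ± 0.11. Among those that fell were Ccl6, a myeloid chemokine (13.59, 13.57 and 13.70 untreated against 9.99, 10.04 and 10.03 treated, -3.60 ± 0.04), Il1b (-2.33 ± 0.16) and Ccl3 (-2.32 ± 0.44). Markers of myeloid cells fell in the same comparison, and their part in these falls was not tested.

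**Figure D2:**
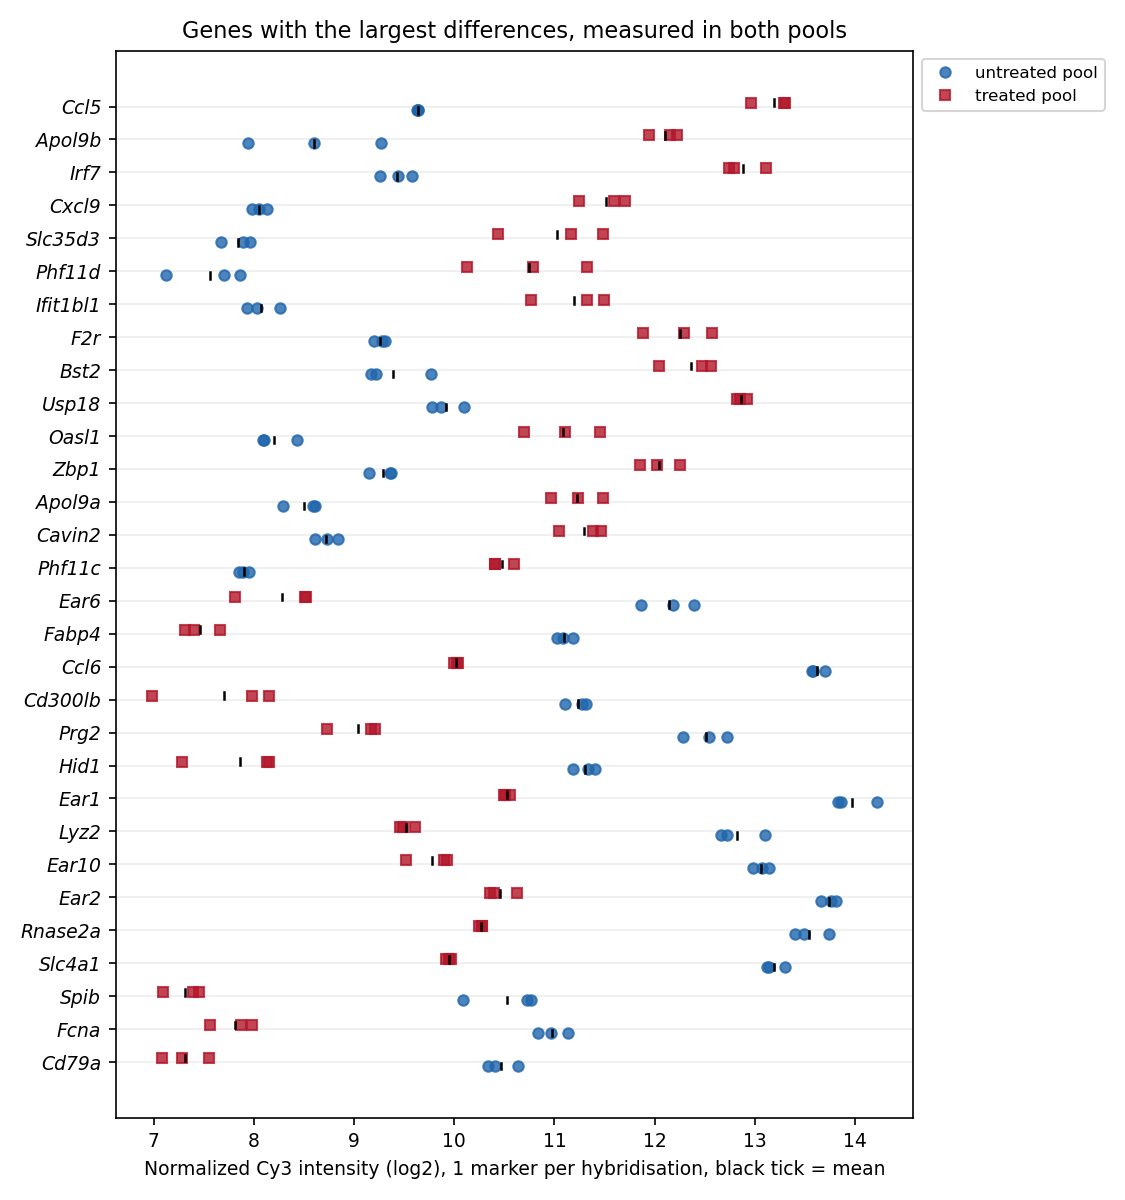
Normalized Cy3 intensity (log2) of the 15 genes with the largest rises and the 15 with the largest falls among those well above background on all arrays of both pools; each marker is 1 hybridisation (circles untreated, squares treated) and black ticks are means. In all 30 genes the 3 treated values are separate from the 3 untreated ones, for example Ccl5 at 9.63 to 9.64 against 12.96 to 13.30.

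Transcripts of HSC surface markers differed in both directions, with 2 of 18 higher and 5 lower. Markers of granulocytes, monocytes and B cells fell in the same comparison (list medians -1.86, -1.18 and -2.66), and their part in the values of these markers and of the HSC regulators was not tested. Ly6a, the Sca-1 antigen used to sort HSCs and itself an interferon-induced gene, had untreated intensities of 11.19, 11.48 and 11.68 and treated intensities of 12.79, 12.63 and 12.69 (1.25 ± 0.15). Slamf1 (CD150), the marker of long-term HSCs, rose from 7.52, 7.63 and 7.33 to 9.10, 8.99 and 8.09 (1.23 ± 0.33). Kit, the receptor of stem cell factor, was at 12.04, 11.67 and 11.42 against 12.01, 11.98 and 12.10, and these ranges overlap (0.32 ± 0.18). Procr, the protein C receptor EPCR of dormant HSCs, fell 5.22-fold, from 11.12, 11.49 and 11.43 to 9.13, 9.40 and 8.36 (-2.38 ± 0.33). The multipotent progenitor receptor Flt3 fell by 1.27 ± 0.14 on the log2 scale and the chemokine receptor Cxcr4 by 1.44 ± 0.23. Cd34 was at -1.31 ± 0.55, but without treated array 3 its difference was -0.79, within slides 1 and 2 it was -0.71 and -0.98, and its other probe gave 0.26. Fcgr3, a marker of myeloid progenitors and phagocytes, fell as well (-2.30 ± 0.07).

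Among 33 regulators of HSC identity, 4 rose and 7 fell. Hlf, a transcription factor that maintains HSC quiescence, went from 12.06, 12.40 and 12.44 to 10.58, 10.73 and 9.98 (-1.87 ± 0.26). Mecom, whose product EVI1 supports self-renewal, fell by 1.46 ± 0.22, from 10.02, 10.32 and 10.17 to 8.82, 8.99 and 8.32. Gfi1, a repressor that restrains HSC proliferation and drives granulocyte fate, fell by 2.19 ± 0.38, whereas its relative Gfi1b, which acts in megakaryocyte and erythroid cells, rose by 1.65 ± 0.15. The guidance receptor gene Robo4 (-1.68 ± 0.21), Foxo3 (-1.11 ± 0.23) and Lyl1 (-1.37 ± 0.11) fell. Hoxb5 (1.22 ± 0.23) rose, but came to 0.98 with the slide as a block and 0.92 within slide 2. Foxo3 came to -0.97 without untreated array 2 and -0.98 without treated array 3, and was also under 2-fold within slide 1. Other core factors were within 2-fold, such as Runx1 (0.69 ± 0.40), Gata2 (0.48 ± 0.13), Tal1 (0.32 ± 0.09), Meis1 (-0.19 ± 0.18) and Myb (-0.17 ± 0.41). Fgd5, an HSC-restricted gene, was at 0.85 ± 0.61 with overlapping hybridisations. All 33 were well above background on every array.

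**Figure D3:**
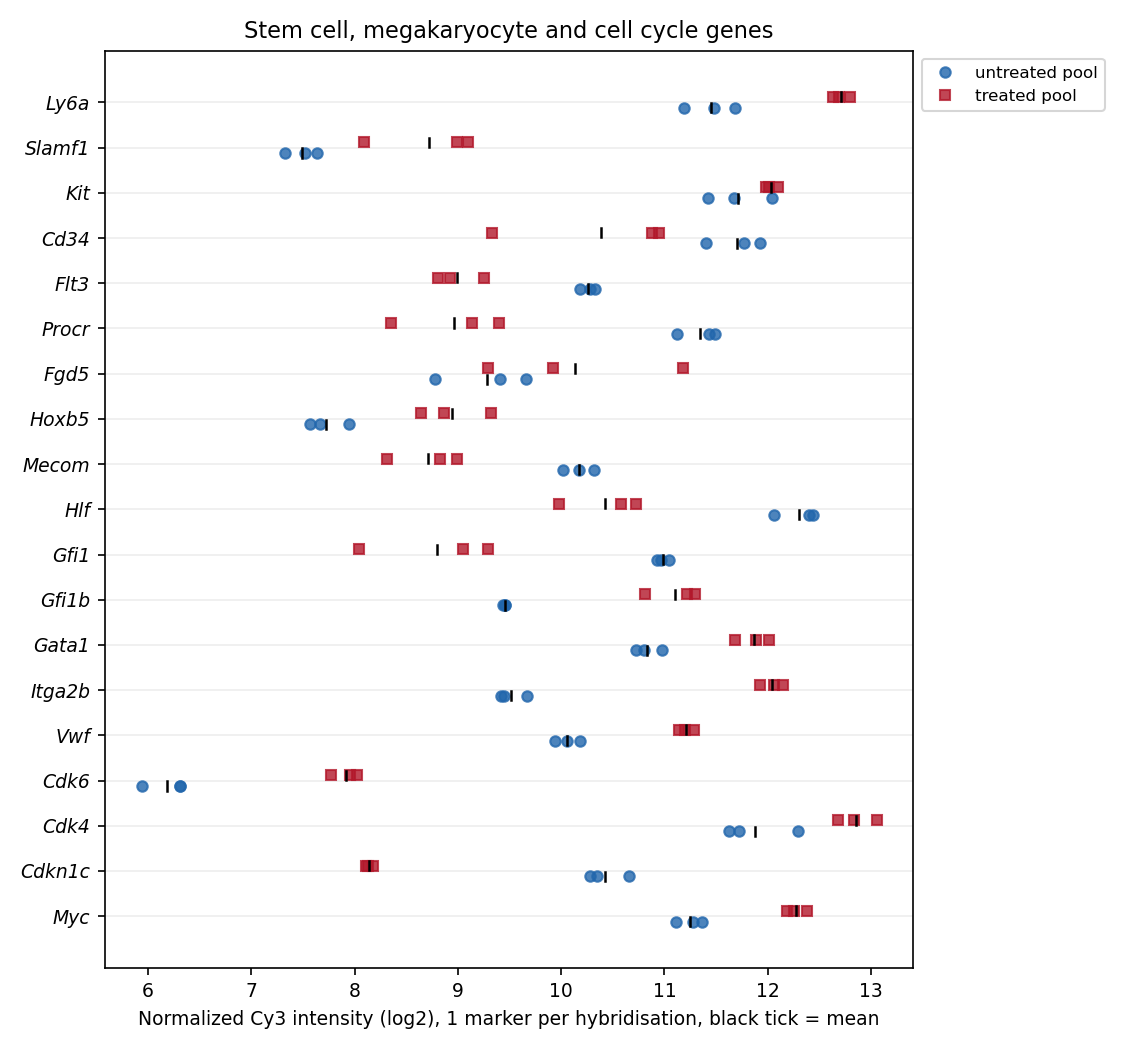
Normalized Cy3 intensity (log2) of stem cell, megakaryocyte and cell cycle genes, 1 marker per hybridisation (circles untreated, squares treated) with black ticks for means. Ly6a, Slamf1, Gfi1b and Itga2b lie higher in the treated pool, Procr, Hlf, Mecom, Gfi1 and Cdkn1c lower, and Kit and Fgd5 overlap.

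Among the lineage lists, that of megakaryocytes and platelets had the most members that rose. Of 20 measured, 8 rose and 2 fell, with a median of 0.64. Of all genes, 4.03% rose and 7.02% fell. Itga2b (CD41), the integrin chain of platelets that also marks a subset of HSCs, went from 9.42, 9.67 and 9.45 to 11.93, 12.06 and 12.15 (2.53 ± 0.10). The platelet chemokine Pf4 (1.53 ± 0.16), von Willebrand factor Vwf (1.14 ± 0.08), Treml1 (1.42 ± 0.18) and Itgb3 (1.27 ± 0.06, its other probe 2.22) rose. The glycoprotein genes Gp5 and Gp1ba rose by at least 2.65-fold and 2.27-fold from levels not well above background on any untreated array. Both genes were kept through the treated pool alone, which favours rises in the count and the median of the list. Thbs1 (-1.80 ± 0.43) and Ppbp (-1.03 ± 0.22) fell, and Nfe2 was at -0.58 ± 0.09. Ppbp fell by less than 2-fold without untreated array 2 (-0.95), untreated array 3 (-0.99) or treated array 3 (-0.86). The same held with the slide as a block (-0.87) and within slide 1 (-0.66). The largest rises outside the interferon genes included that of F2r, the thrombin receptor PAR1 (9.28, 9.31 and 9.20 against 12.58, 12.30 and 11.88, 2.99 ± 0.20). Also among them were Slc35d3, a transporter that platelet dense granules need (7.67, 7.96 and 7.89 against 11.48, 11.16 and 10.44, 3.19 ± 0.32), and Cavin2, a caveola protein also known from platelets (2.57 ± 0.14).

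Erythroid genes split, with 2 of 23 higher and 11 lower. The regulator Gata1 rose from 10.72, 10.97 and 10.80 to 11.89, 12.01 and 11.69 (1.03 ± 0.12, or 0.98 without untreated array 1 and 0.95 without treated array 2) and the early carbonic anhydrase Car1 by 1.16 ± 0.11. Those that fell included genes of later red cell maturation, such as the heme enzyme Alas2 (-2.78 ± 0.14), the membrane protein Slc4a1 (13.14, 13.30 and 13.12 against 9.92, 9.97 and 9.95, -3.25 ± 0.06) and the globin Hbb-b1 (-2.31 ± 0.53). The alpha globin Hba-a1 ranged from 13.81 to 14.70 untreated and from 13.22 to 15.70 treated, so the pools overlapped.

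Most of the listed markers of granulocytes, of monocytes and macrophages, of mast cells, basophils and eosinophils, and of B cells fell in the treated pool. In a pool of sorted cells, fewer cells of a type and less RNA per cell cannot be told apart. Of 23 granulocyte markers, none rose and 17 fell (median -1.86), and the summed level of the list was 18.27 to 18.71 untreated and 16.75 to 17.17 treated (log2). Examples are the granule proteins Ltf (-2.45 ± 0.27), Camp (-2.16 ± 0.22) and Mmp9 (-3.03 ± 0.36), the alarmins S100a8 (-1.86 ± 0.25) and S100a9 (-1.71 ± 0.32, but -0.87 within slide 2), and Fcnb (-3.08 ± 0.17). Among primary granule genes of early myeloid progenitors, Mpo was at -0.85 ± 0.11, Prtn3 at -0.76 ± 0.06 and Ctsg at 0.00 ± 0.14, and Elane at -1.11 ± 0.16, which was -0.96 with the slide as a block, -0.96 within slide 1 and -0.97 within slide 2. Among the stefins, protease inhibitors of neutrophils, Stfa2 fell from 11.21, 11.22 and 11.29 to 9.01, 8.93 and 8.53 (-2.41 ± 0.15). Stfa1 fell (-1.14 ± 0.36), but came to -0.79 without treated array 3 and with the slide as a block and to -0.63 within slide 1. Stfa3 was at 0.31 ± 0.13. The family is near-identical in sequence.

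Monocyte and macrophage markers fell in 15 of 23 cases with none higher (median -1.18, summed level 15.62 to 15.68 against 14.33 to 14.46). Lyz2 had 13.10, 12.66 and 12.72 untreated against 9.49, 9.46 and 9.60 treated (-3.31 ± 0.14), and the scavenger receptor gene Marco fell by 2.84 ± 0.27. Of 16 markers of mast cells, basophils and eosinophils, 10 fell and 1 rose (median -1.83, summed level 15.77 to 16.02 against 13.59 to 13.75). The eosinophil granule protein gene Prg2 went from 12.28, 12.54 and 12.72 to 8.72, 9.17 and 9.21 (-3.48 ± 0.20). The ribonucleases Ear1, Ear2, Ear6 and Ear10, which are close copies of each other, fell by 3.28 to 3.87. The member that rose was Il1rl1, the interleukin 33 receptor (1.16 ± 0.37, or 0.95 without treated array 2, and 0.86 by another probe). The list had 2 rises without untreated array 2 and none without treated array 2.

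B cell genes had the lowest median of the 38 lists, -2.66. Of 16 measured, 14 fell and none rose, with a summed level of 15.18 to 15.19 untreated against 13.71 to 14.29 treated. The B cell receptor chain Cd79a went from 10.41, 10.64 and 10.34 to 7.55, 7.29 and 7.08. The early B lineage factors Ebf1 (-2.42 ± 0.11) and Pax5 (-2.59 ± 0.38) and the surrogate light chain gene Igll1 (at least 6.99-fold) fell. Cd22, at 0.10 ± 0.31, was the member nearest to no difference. Of 12 dendritic cell genes, 4 fell, Ly6d (-2.08 ± 0.19), Itgax (at least 3.51-fold), Irf8 and Flt3, and 1 rose, the interferon-induced Bst2.

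Of 19 measured T and NK cell genes, 4 rose and none fell (median 0.52, summed level 13.46 to 13.57 against 14.20 to 14.29). With processed signal 7 rose and 2 fell. Among the 19, 4 were not well above background on any untreated array and were kept through the treated pool alone. This favours rises in the count and the median. The cytotoxic granule protease Gzmb rose by at least 3.96-fold and the co-receptor Cd8a by at least 4.26-fold, both from levels not well above background on any untreated array. Cd8a was at 6.35, 6.35 and 6.50 untreated and at 8.59, 8.82 and 8.74 treated. Nkg7 (1.29 ± 0.20) and Eomes (at least 2.33-fold) also rose, while Prf1 was at 0.03 ± 0.29 and Cd4 at -0.55 ± 0.21. In this bulk measurement the part of T or NK cells, as against HSCs, in these rises was not tested.

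Endothelial and stromal genes fell in 13 of 18 cases with none higher (median -1.80, summed level 14.56 to 14.61 against 12.65 to 13.02). Ibsp, the bone sialoprotein of osteoblasts, had 10.52, 10.81 and 10.80 untreated and was not well above background on any treated array, a fall of at least 17.4-fold by its brightest probe, while its other probe differed by -2.87. The collagen genes Col1a1 (-2.84 ± 0.15) and Col1a2 (-1.95 ± 0.15), the leptin receptor Lepr (-2.45 ± 0.11, its other probe -1.34), the adipocyte hormone Adipoq (-2.89 ± 0.14) and the niche chemokine Cxcl12 (12.24, 11.87 and 12.16 against 9.36, 9.18 and 9.23, -2.84 ± 0.12) fell. The bone protease Ctsk and the matrix glycoprotein Tnc fell by at least 5.94-fold and 6.40-fold, but the other probe of Tnc differed by -1.02. The endothelial genes Kdr (0.41 ± 0.40) and Pecam1 (0.17 ± 0.14) were within 2-fold.

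Of 20 genes of homing and adhesion, 3 rose, Itgb3, Selp (1.04 ± 0.32) and Itga5 (1.01 ± 0.19), and 6 fell. Selp and Itga5 were at the limit: without untreated array 1 they came to 0.94 and 0.99. Without treated array 2 both came to 0.88, and each of these omissions leaves 1 rise. Selp came to 0.91 without treated array 1. Itga5 came to 0.95 without treated array 3, 0.90 with the slide as a block and 0.66 within slide 1. The falls included those of Vcam1 (-2.82 ± 0.33, its other probe -1.69), the ligand for the integrin VLA-4, the leukocyte integrin chain Itgb2 (-2.15 ± 0.09), S1pr1 (-1.80 ± 0.31), Alcam and Cxcr4. Many of these genes are also expressed in the mature and stromal cells whose markers fell, and the part of those cells was not tested.

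**Figure D4:**
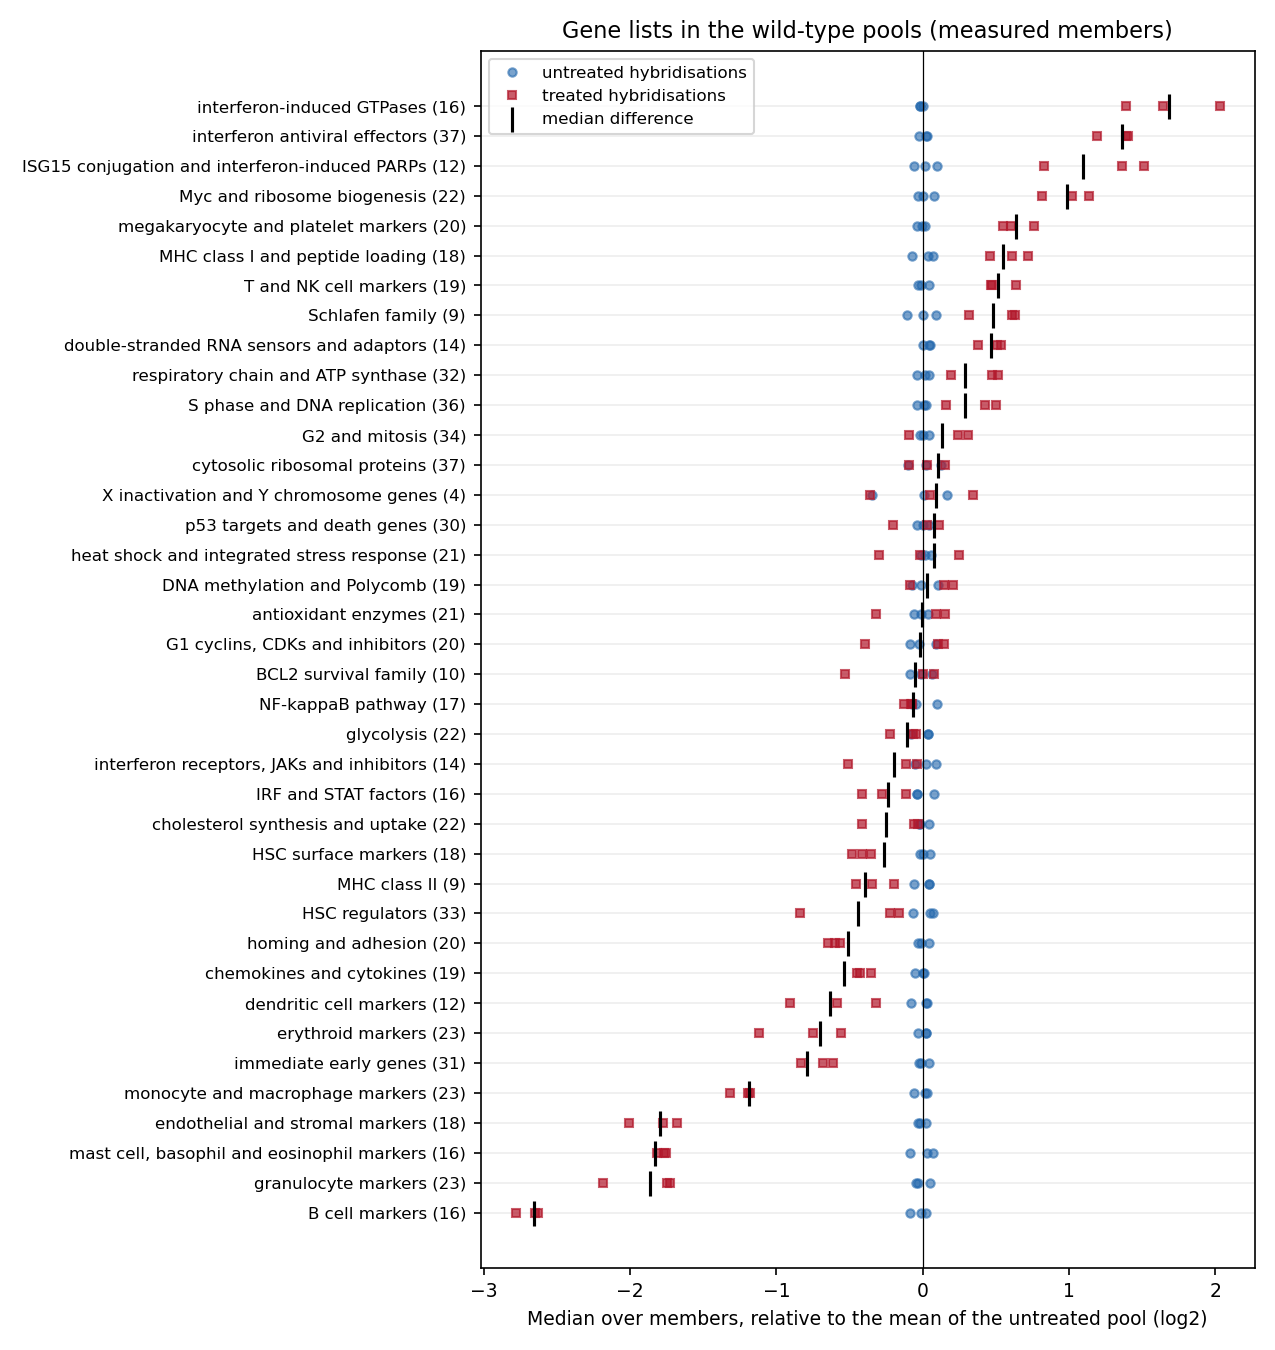
Median over the measured members of each gene list (number in brackets) on each hybridisation, relative to the mean of the untreated pool (log2); circles are untreated and squares treated hybridisations, and the black tick is the list's median difference. Interferon lists lie furthest to the right (GTPases 1.68, effectors 1.36) and B cell, granulocyte and eosinophil lists furthest to the left (-2.66, -1.86 and -1.83).

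Of 22 genes of Myc and ribosome biogenesis, 10 rose and none fell (median 0.98), or 8 to 13 with 1 hybridisation left out. Myc, the growth-promoting transcription factor, went from 11.27, 11.36 and 11.11 to 12.19, 12.25 and 12.38 (1.02 ± 0.09), and Mycn rose by 1.04 ± 0.21. Both were near the limit. Myc came to 0.96 without untreated array 3, 0.97 without treated array 3 and 0.95 with the slide as a block. Within slides 1 and 2 Myc was at 0.996 and 0.89. Mycn came to 0.94 without untreated array 1, 0.86 without treated array 2 and 0.86 within slide 1. The nucleolar factor Pes1 rose from 8.96, 9.01 and 8.60 to 10.38, 10.44 and 10.53 (1.60 ± 0.14, its other probe 0.79). Rrs1 (1.44 ± 0.17), Rrp9 (1.42 ± 0.15), the RNA polymerase I subunit Polr1b (1.39 ± 0.12) and nucleolin Ncl (1.30 ± 0.09, its other probe 0.37) rose. None of 37 cytosolic ribosomal proteins rose or fell, with differences between -0.57 and 0.50. None of 32 respiratory chain genes rose or fell (median 0.29), and 1 rose without untreated array 3, treated array 2 or treated array 3.

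In S phase, 3 of 36 genes rose and 1 fell (median 0.29), or 8.33 and 2.78%, against 4.03 and 7.02% of all genes. The number of rises was 1 without treated array 2, 5 without untreated array 2 and 6 without treated array 3. The rises were those of the replication helicase factor Gins1 (1.52 ± 0.15), the transcription factor E2f1 (1.01 ± 0.10) and the polymerase Pola1 (1.01 ± 0.36), the latter pair at the 2-fold limit, and the fall that of E2f2 (-2.16 ± 0.10). Of 34 genes of G2 and mitosis, 1 rose, the spindle motor Kif11 (1.25 ± 0.08), and 1 fell, Kif23 (-1.39 ± 0.33). These shares, 2.94% each, were below the 4.03 and 7.02% of all genes. The number of rises was 2 without untreated array 1, untreated array 3, treated array 1 or treated array 3, and the number of falls 2 without treated array 1. E2f1 came to 0.93 without untreated array 3, 0.99 without treated array 2, 0.98 without treated array 3 and 0.96 with the slide as a block. Within slides 1 and 2 E2f1 was at 0.93 and 0.99. Pola1 came to 0.96, 0.82 and 0.85 without untreated array 1, treated array 1 and treated array 2. The proliferation marker Mki67 was at 12.54, 12.61 and 12.34 untreated and 11.90, 12.04 and 12.10 treated (-0.49 ± 0.10). The E2F motif TTTCGCGC occurred in promoters of 6 of 31 S phase genes (19.4%), in 6 of 519 genes that rose (1.16%) and in 83 of 10838 measured genes (0.766%).

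Among 20 regulators of G1, 1 rose and 1 fell (5.0% each), near the 4.03 and 7.02% of all genes. These counts were 2 and 2 without untreated array 1 or treated array 2 and 2 and 1 without treated array 1. The gene that fell was Cdkn1c, which encodes the CDK inhibitor p57 of quiescent HSCs: its intensities were 10.66, 10.28 and 10.34 untreated and 8.11, 8.13 and 8.18 treated, a 4.88-fold fall (-2.29 ± 0.12). The gene that rose was Cdk6, at 5.94, 6.31 and 6.31 untreated, not well above background on any array, and 8.02, 7.95 and 7.77 treated. Its rise was at least 2.44-fold. In the Cdk6-/- samples the same probe was at 6.57, 5.99 and 6.95 untreated and 8.53, 8.28 and 7.13 treated. Whether the probe reports intact Cdk6 mRNA is therefore not known. The related kinase Cdk4 was at 12.29, 11.72 and 11.63 untreated and 12.84, 12.68 and 13.05 treated (0.98 ± 0.23). The other inhibitors Cdkn1a (0.28 ± 0.13), Cdkn1b (-0.69 ± 0.08) and Cdkn2c (-0.16 ± 0.28), and the D-type cyclins Ccnd1 (-0.02 ± 0.27), Ccnd2 (0.41 ± 0.20) and Ccnd3 (-0.31 ± 0.10), were within 2-fold.

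Immediate early genes, which respond within minutes to growth and stress signals, fell in 11 of 31 cases and 1 rose, Myc (median -0.79). The nuclear receptor Nr4a1 went from 12.03, 12.20 and 12.22 to 9.20, 10.05 and 9.55 (-2.55 ± 0.26). Nfil3 (-2.31 ± 0.25), Klf4 (-2.23 ± 0.42), Klf2 (-1.35 ± 0.39) and Nr4a2 (-1.21 ± 0.12, its other probe -0.88) fell. With the slide as a block none of the list rose and 9 fell, and Klf2 came to -0.998, or -0.67 within slide 1. Egr1 was at 0.02 ± 0.21, Junb at -0.12 ± 0.14 and Fos at -0.48 ± 0.10, and these classical members were within 2-fold. Of 17 NF-kappaB genes none rose and 1 fell, Traf1 (-1.32 ± 0.18), and 1 rose without untreated array 2 or treated array 1. The share that fell, 5.88%, was near the 7.02% of all genes.

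In the stress lists, the inducible heat shock protein gene Hspa1a rose from 7.80, 7.74 and 7.56 to 10.09, 9.79 and 10.44 (2.40 ± 0.20) and Hsph1 by 1.41 ± 0.11. The amino acid enzymes Phgdh (1.19 ± 0.12) and Asns (1.17 ± 0.08) rose, while Hmox1 (-1.53 ± 0.14) and Ddit4 (-1.12 ± 0.08) fell. The other probe of Hmox1 gave -0.33, and leaving out any untreated array made that probe the brighter (-0.31, -0.34 and -0.33). Of 30 p53 targets and death genes, 3 rose and 2 fell, or 4 fell without untreated array 1. Trp53 itself went from 11.83, 11.74 and 11.55 to 12.76, 13.00 and 12.99 (1.21 ± 0.11), and Mlkl, the executor of necroptosis, rose by 1.32 ± 0.15. Cdkn1a and Mdm2 (-0.57 ± 0.17), both p53 targets, were within 2-fold. In the BCL2 family, Bcl2 rose by 1.25 ± 0.14 (0.97 within slide 1) and Mcl1 was at -0.57 ± 0.10.

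Of 21 antioxidant genes, 1 rose, Keap1 (1.43 ± 0.15), and 4 fell (4.76 and 19.0%, against 4.03 and 7.02% of all genes). The extracellular glutathione peroxidase Gpx3 had 11.60, 11.53 and 11.56 untreated and 8.43, 8.79 and 8.57 treated (-2.96 ± 0.11). Of 22 glycolysis genes, 3 fell, Aldoc (-2.04 ± 0.09), Hk3 (-1.83 ± 0.25) and Ldhb (-1.80 ± 0.25), and none rose. In cholesterol metabolism 1 of 22 rose, Lss (1.27 ± 0.18), and 1 fell, Insig1 (-1.09 ± 0.33, or -0.85 without treated array 1). Each is 4.55% of the list, against 4.03 and 7.02% of all genes. The number of rises was 2 without untreated array 1, untreated array 3, treated array 1 or treated array 2, and that of falls 0 without treated array 1 and 2 without treated array 2. No gene of DNA methylation or Polycomb reached 2-fold among 19, the highest being Dnmt1 (0.84 ± 0.12) and the lowest Ezh1 (-0.85 ± 0.07), but 1 fell without untreated array 1 or treated array 1 and 2 rose without treated array 3. In the Schlafen family, Slfn8 (1.54 ± 0.20) and Slfn10-ps (1.17 ± 0.09) rose, and Slfn1 (-1.59 ± 0.38) and Slfn14 (-2.87 ± 0.11) fell. Within slide 1 Slfn8 was at 0.19 and Slfn1 at -0.96, and the other probe of Slfn8 gave 0.39.

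Some of the largest rises were in genes with no place in the interferon lists. The potassium channel gene Kcnj5 was not well above background in the untreated pool (6.28, 6.38 and 6.29) and reached 10.31, 10.55 and 10.08 in the treated pool, a rise of at least 12.9-fold. The axon guidance receptor gene Robo3 went from 6.61, 6.67 and 6.20 to 9.32, 9.41 and 9.51 (at least 6.65-fold). Fbn1, the extracellular matrix protein fibrillin, rose by at least 3.89-fold and Btnl9 by at least 3.59-fold. Apol9b and Apol9a rose by 3.50 ± 0.39 and 2.73 ± 0.18, and the other probe of Apol9a gave 3.46. Among the falls outside the lists were Fabp4, a fatty acid carrier (11.09, 11.18 and 11.03 against 7.66, 7.40 and 7.31, -3.64 ± 0.11), Cd300lb (-3.53 ± 0.37), Hid1 (-3.45 ± 0.29), the B cell and plasmacytoid factor Spib (-3.21 ± 0.25), the macrophage lectin Fcna (-3.17 ± 0.15), Rnase2a, Amy2a5 (at least 5.82-fold) and Sgsm1 (at least 6.44-fold). The other probes of Amy2a5 and Sgsm1 differed by less, -1.84 and -1.6, and Sgsm1 was at -0.87 within slide 2.

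The Cdk6-/- samples, read in Cy5 on the same arrays and processed in the same way, are given beside the pools; the responses were not tested against each other, and genotype, dye, and pool as against sample cannot be told apart. The antiviral effectors had a median difference of 1.36 in the pools and 1.33 in Cdk6-/- samples, over the members measured in each. The GTPases had 1.68 and 0.83, the ISG15 list 1.1 and 0.65, and the sensors 0.46 and 0.64. By Cdk6-/- sample, the GTPase median was -0.39 to 0.20 untreated and 1.12, 0.88 and 0.25 treated. That of the ISG15 list was -0.16 to 0.13 untreated and 0.96, 1.23 and 0.21 treated. The lowest treated value of each was on treated array 3. Usp18 was at 2.95 in the pools and 2.93 in Cdk6-/- samples, Irf7 at 3.46 and 3.67, Ccl5 at 3.55 and 4.20, and Kcnj5 at 4.0 and 4.22. Herc6 was at 2.12 and 0.25 and Tapbpl at 1.90 and 0.12. Procr (-2.38 and -2.64), Hlf (-1.87 and -2.13), Mecom (-1.46 and -2.03), Cdkn1c (-2.29 and -1.95) and Itga2b (2.53 and 3.31) had like signs in both. The Cdk6 probe, which may lie inside or outside the deletion, was at 1.73 and 1.48. The medians of lineage markers were -1.86 in the pools and -0.28 in Cdk6-/- samples for granulocytes, -1.18 and -0.24 for monocytes, -1.83 and -0.18 for eosinophils and related cells, -2.66 and -1.20 for B cells, and -0.70 and -1.52 for erythroid genes. The Cdk6-/- samples varied widely. By sample, their granulocyte median was -0.60 to 0.47 untreated and -0.38 to -0.16 treated. The monocyte median was -0.38 to 0.57 and -0.61 to 0.66, and that of eosinophils -0.19 to 0.16 and -0.96 to 0.32. Single genes differed: Lyz2 was at -3.31 and -1.56, and Prg2 at -3.48 and -0.72, the latter with overlap in Cdk6-/- samples. Gpx3 was at -2.96 and -0.20.

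**Figure D5:**
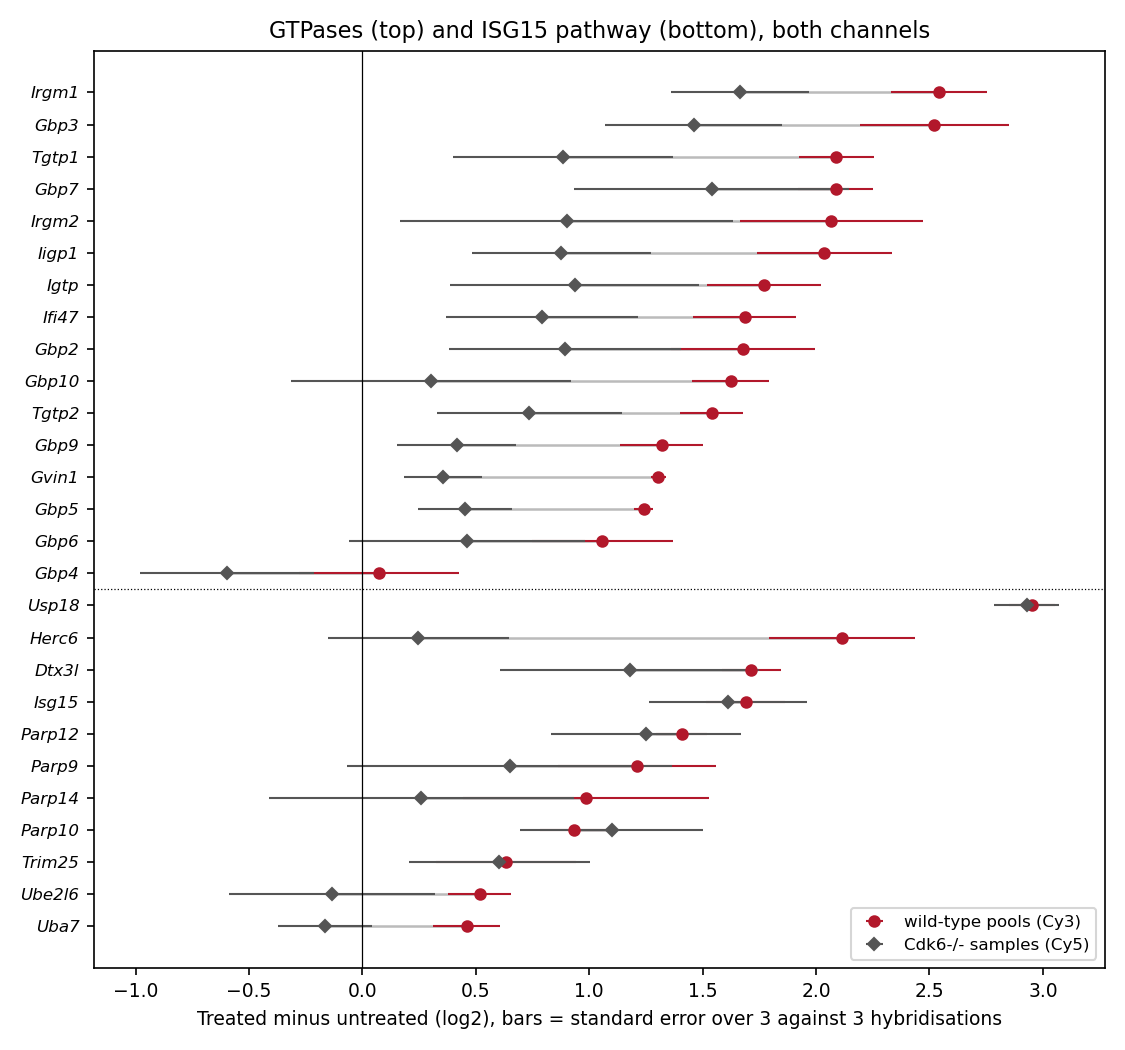
Treated minus untreated difference (log2) of interferon-induced GTPases (above the dotted line) and of genes of ISG15 conjugation and PARPs (below it), in the wild-type pools (red circles, Cy3) and the Cdk6-/- samples (grey diamonds, Cy5); bars are standard errors over 3 against 3 hybridisations, technical for the pools and between samples for Cdk6-/-. Herc6 is at 2.12 and 0.25 and Usp18 at 2.95 and 2.93, and the difference between the channels was not tested.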

How the data were processed

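Total RNA of sorted HSCs was amplified by whole transcriptome amplification and 250 ng were labelled with guanine-binding platinum dyes, with RNA integrity numbers of 5.3 to 8.9, per the labels' protocols. Per the file headers, arrays were read with Agilent Feature Extraction 11.5.1.1 and annotated on mm9. The authors deposited scanner files that hold median intensity per spot and background, and flags (other, neither intensity nor ratio). Median signals took the place of the mean signals first planned, which the files lack.

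Here Cy3 intensities were corrected with normexp (offset 50) in limma 3.58.1 (R 4.3.3), quantile normalized over the 6 arrays and put on the log2 scale, without the control, outlying and non-uniform spots. Of 55681 probes, 31458 were well above background on all 3 arrays of at least 1 pool and were kept, the brightest per gene. This gave 22432 genes, 13534 with a symbol from RefSeq (22244 of 23839 accessions matched). No spot was saturated. The number of arrays limits the precision, and the median technical SD was 0.17 untreated and 0.27 treated (log2). Slide 1 held untreated arrays 1 and 3 and treated array 1, slide 2 untreated and treated array 2, and slide 3 treated array 3. Array numbers follow deposition order and pair nothing.

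Genes were named by 4 rules: the 15 highest and 15 lowest differences measured in both pools, the 6 highest bounds in each direction, members of 38 gene lists, and Cdk6. The comparison, the lists and the rules were chosen with earlier results of these data known. A list is described by its counts and median, with no test, and some of its members are not reported here by name. Alternatives were other background correction and scaling, no filter, the mean over probes, slide as a block, each slide alone, and leaving out each hybridisation.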

Additional observations from a re-analysis of the deposited data

Results flagged for a closer look

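The neutrophil protease inhibitor genes Stfa1 and Stfa2 moved in opposite directions in the pools and in the Cdk6-/- samples, with no overlap of untreated and treated values in either channel. Stfa1 was at -1.14 in the pools and 1.90 in Cdk6-/- samples, and Stfa2 at -2.41 and 1.37 (log2, treated minus untreated). The difference between the responses was not tested, and the copies of this family are near-identical, so they are not independent.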

How the results depend on the processing

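With Agilent's processed signal, 1765 genes rose and 2486 fell, against 905 and 1575, and 899 and 1565 of the original calls were among them. Within slide 1 alone 1491 genes rose, and within slide 2 alone 1429, where 3 and 2 arrays leave fewer values to separate. Of all calls, 36.5% were rises, and 46.7% within slide 1. With 1 hybridisation left out, 893 to 1071 genes rose and 1502 to 1716 fell. The median of the antiviral effectors was 1.54 with processed signal, 1.58 with the mean over probes and 1.28 to 1.40 with 1 hybridisation left out. The median of the NF-kappaB list, -0.07, changed sign without treated replicate 1 (0.04; range -0.18 to 0.04). Of 187 named genes that rose or fell, 174 to 187 kept their call in each alternative. No paired analysis was possible because the array numbers follow deposition order and 1 RNA pool per treatment allows no test. Genes near background have only bounds.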

Other observations

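Some further gene families were counted after their values were seen, so their counts are descriptions. Some of their members are also in the lists. Of 34 aminoacyl-tRNA synthetases, which charge tRNAs for translation, 8 rose and none fell, with a median of 0.67. Farsb, a chain of the phenylalanine enzyme, went from 8.15, 8.31 and 7.99 to 9.92, 10.34 and 10.49 (2.10 ± 0.19), and the mitochondrial Lars2 rose by 1.81 ± 0.11. Of 9 subunits of the chaperonin CCT, which folds actin and tubulin, 3 rose and none fell (median 0.94), among them Cct6a (1.83 ± 0.22) and Tcp1 (1.36 ± 0.20). Of 77 mitochondrial ribosomal proteins, 8 rose and none fell (median 0.50). Of 17 proteasome core subunits 3 rose and none fell (median 0.50). The 3 include the immunoproteasome subunits Psmb8 and Psmb10, already given in the MHC class I list. Of 6 Toll-like receptor genes none rose and 2 fell, Tlr13 and Tlr12, the latter at -0.99 without untreated array 2.

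Further genes chosen after their values were seen include receptors of platelets. P2ry1, a receptor for ADP, rose by 3.60 ± 0.36 (6.21, 6.96 and 6.90 untreated, above background on 1 array, against 10.56, 10.56 and 9.76), and Tbxa2r, the thromboxane receptor, by 1.90 ± 0.18. The transcription factor genes Tcf7 (2.08 ± 0.12) and Runx3 (1.86 ± 0.09, its other probe 1.09), both known from T cells, rose. Among 1055 features known only by an Ensembl transcript identifier, 3.51% rose and 13.6% fell, against 4.03 and 7.02% of all genes.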
